A study of Mus musculus with 2 samples.

Results

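The genes described here are 22 immediate early genes and 11 heat shock genes, 33 of the 31253 genes listed for single cells of mouse pancreas. They were chosen by name, and all 33 were found in both libraries. The 22 immediate early genes are Fos, Fosb, Fosl2, Jun, Junb, Jund, Atf3, Egr1, Egr2, Egr3, Klf2, Klf4, Klf6, Nr4a1, Nr4a2, Nr4a3, Dusp1, Zfp36, Btg2, Ier2, Ier3 and Ier5. The 11 heat shock genes are Hspa1a, Hspa1b, Dnajb1, Hsph1, Hspb1, Hspa8, Hsp90aa1, Hsp90ab1, Dnaja1, Hspd1 and Hspe1. The series holds 2 libraries captured on the BD Rhapsody system, 1 from the pancreas of mice treated with Cae (CP) and 1 from mice treated with Cae and extracellular vesicles (CP+EVs). Both libraries carry the Cae treatment. The condition label of both reads acute pancreatitis, while the title of the series names chronic pancreatitis and exercise-induced vesicles. Strain, age, the dose and the source of the vesicles, the number of animals behind each library and any pooling of animals are not stated in the labels used here.

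Immediate early genes are transcribed within minutes of a stimulus from factors already present in the cell. Most encode transcription factors, and several encode proteins that end the response again, such as the phosphatase Dusp1 and the RNA-decay factor Zfp36. Heat shock genes encode chaperones: Hspa1a, Hspa1b, Dnajb1, Hsph1 and Hspb1 are switched on by the factor Hsf1 when proteins unfold, whereas Hspa8 and Hsp90ab1 are abundant in unstressed cells. Enzymatic dissociation of a tissue into single cells is known to raise genes of both kinds, so they are commonly read as a sign of handling as well as of signalling in the animal. With 1 library per group, handling, library and treatment cannot be told apart here.

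Promoter windows of these genes were searched for elements known from each kind, and 6 are shown to make the matches visible. RefSeq windows on GRCm38.p6, from 250 bases before to 50 bases after the start, matched 27 of the 33 members. Hsf1 binds inverted repeats of GAA. The form GAANNTTC, which reads the same on both strands, lay in the windows of 7 of 8 matched heat shock genes (Hspa1a, Hspa1b, Hsph1, Hspb1, Dnaja1, Hspd1 and Hspe1), against 9.04% of 27025 genes. The form TTCNNGAA lay in 3 of the 8, against 9.60% of genes, and overlaps GAANNTTC in Hspe1. In the next 4 windows capitals mark these forms.
Hspa1a (chr17:34972107-34972406, minus strand): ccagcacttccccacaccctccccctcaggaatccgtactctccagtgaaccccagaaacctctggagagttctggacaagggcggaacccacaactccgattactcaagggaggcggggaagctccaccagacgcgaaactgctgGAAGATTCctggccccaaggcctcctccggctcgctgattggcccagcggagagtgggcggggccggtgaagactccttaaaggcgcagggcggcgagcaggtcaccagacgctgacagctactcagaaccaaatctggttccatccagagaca
Hspa1b (chr17:34959189-34959488, minus strand): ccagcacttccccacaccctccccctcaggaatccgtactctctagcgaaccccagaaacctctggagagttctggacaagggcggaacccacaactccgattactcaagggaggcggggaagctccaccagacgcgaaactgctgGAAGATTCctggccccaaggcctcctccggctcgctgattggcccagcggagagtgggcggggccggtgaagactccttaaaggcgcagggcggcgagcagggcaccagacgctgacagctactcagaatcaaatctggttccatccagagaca
Hspe1 (chr1:55087898-55088197, plus strand): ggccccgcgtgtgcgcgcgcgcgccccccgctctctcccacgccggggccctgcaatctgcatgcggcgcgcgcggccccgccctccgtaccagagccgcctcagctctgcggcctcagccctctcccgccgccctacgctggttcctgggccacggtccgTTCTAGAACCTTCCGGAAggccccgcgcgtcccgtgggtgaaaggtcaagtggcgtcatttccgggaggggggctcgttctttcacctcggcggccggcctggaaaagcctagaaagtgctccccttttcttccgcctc
Hspb1 (chr5:135887669-135887968, plus strand): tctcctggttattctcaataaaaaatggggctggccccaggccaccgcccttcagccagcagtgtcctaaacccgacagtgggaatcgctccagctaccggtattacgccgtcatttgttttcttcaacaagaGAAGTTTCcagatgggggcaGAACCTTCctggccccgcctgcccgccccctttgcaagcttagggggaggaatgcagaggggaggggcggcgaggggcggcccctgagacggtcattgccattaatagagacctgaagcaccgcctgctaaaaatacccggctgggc
The windows of Hspa1a and Hspa1b differed at 4 of 300 bases. Those of Hspe1 and Hspd1 overlap, since these genes lie head to head on chromosome 1.

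Immediate early promoters are known for cyclic AMP response elements, bound by Creb1, and for the CArG box, bound by serum response factor. The complete element TGACGTCA lay in the windows of Dusp1 and Btg2, 2 of 19 matched immediate early genes, against 2.03% of genes. The shorter TGACG, which is contained in the complete element and was searched on both strands, lay in 12 of 19 immediate early and 5 of 8 heat shock windows, against 23.0% of genes. A CArG box lay in Egr2 and Zfp36, against 1.81% of genes. The AP-1 letters TGANTCA were in none of the 19 or the 8 windows, against 8.97% of genes. In the windows of Fos and Dusp1 capitals mark TGACG and TGACGTCA on the printed strand.
Fos (chr12:85473640-85473939, plus strand): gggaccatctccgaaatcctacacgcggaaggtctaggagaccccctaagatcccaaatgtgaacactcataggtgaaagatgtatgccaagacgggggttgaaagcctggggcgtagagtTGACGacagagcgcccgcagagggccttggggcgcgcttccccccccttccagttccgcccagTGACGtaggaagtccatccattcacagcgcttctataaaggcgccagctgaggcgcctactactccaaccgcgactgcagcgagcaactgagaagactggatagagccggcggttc
Dusp1 (chr17:26508423-26508722, minus strand): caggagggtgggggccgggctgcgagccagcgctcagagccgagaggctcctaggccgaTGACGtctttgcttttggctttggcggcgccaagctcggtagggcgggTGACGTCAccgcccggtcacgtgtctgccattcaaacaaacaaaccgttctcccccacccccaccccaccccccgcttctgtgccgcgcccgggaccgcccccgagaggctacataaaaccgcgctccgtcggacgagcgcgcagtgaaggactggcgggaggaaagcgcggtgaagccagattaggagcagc
A match of letters describes the window only.

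The CP library held 51652425 UMIs in 13507 barcodes and the CP+EVs library 38532775 UMIs in 8845 barcodes, at medians of 1417 and 2884 UMIs per barcode. The libraries shared 118 barcodes. Barcodes were sorted into classes by UMIs of marker genes, at least 3 markers of a class above the library's rate and at least 2 times as many as of any other class. This gave a class to 53.1% of the kept CP and 66.9% of the kept CP+EVs barcodes. Of the markers that define each described class, all stood at least 2-fold above their library level in that class, except 1 of 6 eosinophil markers, which had no UMI in the CP eosinophil barcodes. The gate used these same markers, so their excess was largely set by it and is no check of the class names. Free RNA was read from acinar and fibroblast genes, and in CP also neutrophil genes, in classes that do not make them. Its highest reading per class ran from 14.1% of the library level in CP+EVs fibroblasts to 26.7% in CP+EVs acinar barcodes. A member at or below its class's highest such value is called within reach of free RNA. Classes with at least 50 barcodes are described, 10 in each library, and 7 of them occur in both and are compared. All intervals are 95% intervals for counting error only. Every difference compares these libraries, with no replicate and no test.

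Summed over the class, the 22 immediate early genes took between 0.639% and 5.08% of all UMIs, and the order of the classes was led by ductal cells, fibroblasts and neutrophils. Ductal cells, the epithelium of the pancreatic ducts, had the highest share at 5.08% (5.02 to 5.14) and were described in CP+EVs only. Fibroblasts stood at 2.83% in CP and 3.57% in CP+EVs. Neutrophils, described in CP only, stood at 3.16% (3.14 to 3.17). Below them came mesothelial cells, the lining of the organ's surface, with 2.07% and 2.57%, and endothelial cells, described in CP+EVs only, with 2.40%. Macrophages or monocytes stood at 1.63% in CP and 2.12% in CP+EVs. In CP the interval of eosinophils (1.58 to 1.71) overlapped that of macrophages or monocytes (1.62 to 1.63), so these neighbours were not separated.

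Lymphocytes lay at the low end in both libraries, and in CP so did dendritic cells, at 1.18% (1.15 to 1.21). In CP and then CP+EVs, T cells stood at 1.09% and 1.22%, natural killer (NK) cells at 1.30% and 1.35%, and B cells at 0.962% and 0.716%. The CP intervals of T cells (1.08 to 1.11) and plasma cells (1.06 to 1.10) overlapped, as did their CP+EVs intervals. Plasma cells, the antibody-secreting cells, read 1.08% and 1.23%, but 2.04% and 2.81% of the UMIs left when acinar, Reg, mitochondrial, haemoglobin and immunoglobulin genes were set aside. Acinar barcodes of CP+EVs had the lowest share, 0.639% of all UMIs, and 1.78% of the UMIs left when those genes were set aside. The order of the 7 classes seen in both libraries was nearly the same in each (Spearman's rho 0.96 over 7 classes, a description of classes that share a library and its free RNA).

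Heat shock genes followed another order. Mesothelial cells had 1.07% in CP and 1.08% in CP+EVs, ductal cells 1.22% and endothelial cells 0.773%. Neutrophils, among the highest for immediate early genes, had the lowest CP share of heat shock genes, 0.196% (0.192 to 0.200). T cells were the reverse, near the bottom for immediate early genes and second to mesothelial cells in CP for heat shock genes at 0.665%. Fibroblasts held 0.467% and 0.584%. Across the 10 classes of CP the shares of the 2 lists had a Spearman's rho of -0.19, and across the 10 classes of CP+EVs 0.67. The share of heat shock genes and the mitochondrial share had a rho of 0.67 in CP and 0.59 in CP+EVs, again over 10 classes each, and what part the mitochondrial share has in the result was not tested.

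**Figure D1:**
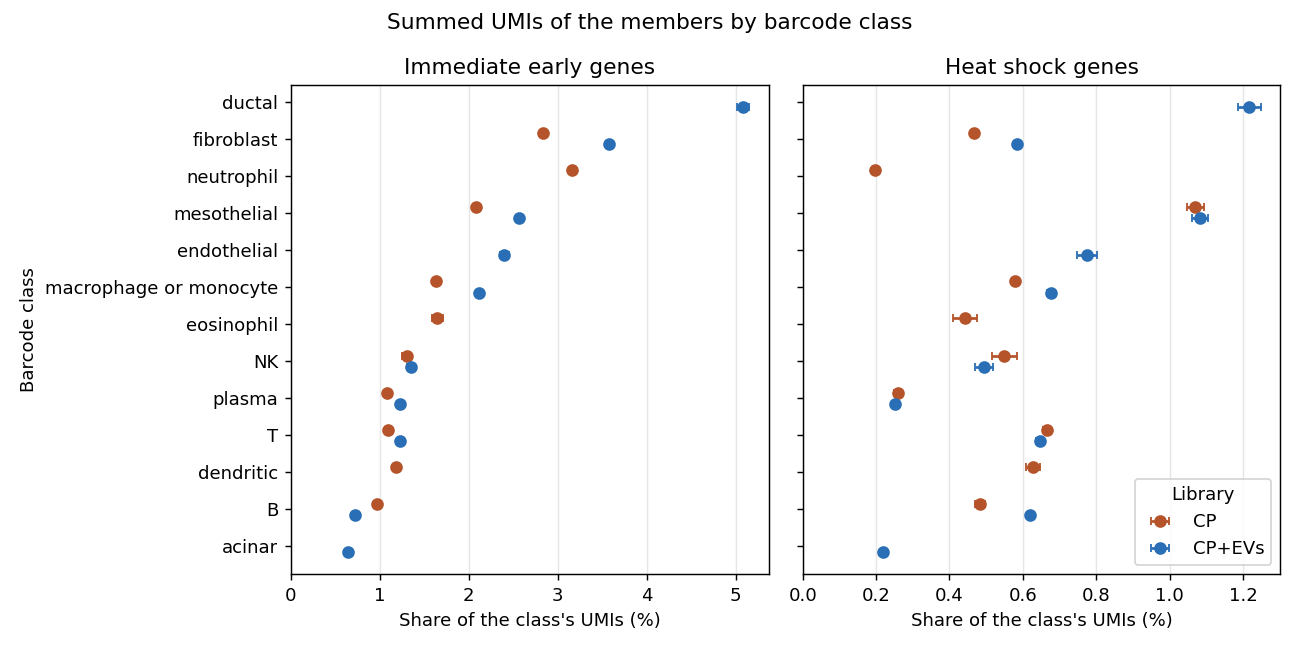
Share of each class's UMIs (horizontal axis, percent) taken by the 22 immediate early genes (left) and the 11 heat shock genes (right), for each barcode class (vertical axis) in CP (brown) and CP+EVs (blue), with 95% Poisson intervals. Ductal cells have the highest share of both lists, neutrophils are high on the left and lowest in CP on the right, and classes with 1 point had fewer than 50 barcodes in the other library.

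The AP-1 members Fos, Fosb, Fosl2, Jun, Junb, Jund and Atf3 encode leucine-zipper proteins that bind DNA in pairs. Together they took 2.54% of ductal UMIs, 1.06% and 1.44% of fibroblast UMIs in CP and CP+EVs, and 1.16% of neutrophil UMIs. B cells were lowest of the compared classes with 0.403% and 0.331%. Fos, the classical first responder, stood at 6749 CPM (a gene's UMIs scaled to the same total in every class) in ductal cells and 3753 CPM in neutrophils. In fibroblasts Fos read 3397 CPM in CP and 5139.8 CPM in CP+EVs, against 545 and 661 CPM in T cells. Jun, the usual partner of Fos, stood at 879 and 1629.7 CPM in fibroblasts and 187 and 219 CPM in T cells, while plasma cells held 1023 and 837 CPM.

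Not every AP-1 member was low in lymphocytes. Jund, the AP-1 gene that is also made at rest, was highest in plasma cells in CP, with 2176 CPM (2092 to 2263), and read 2989 CPM in CP+EVs plasma cells. In B cells Jund reached 1517 and 1589 CPM and made up 15.8% and 22.2% of the immediate early UMIs of the class. Junb stood at 1244 and 1332 CPM in T cells, near the 1383 CPM of CP fibroblasts. Fosl2 was highest in CP in eosinophils (2142 CPM, 1921 to 2382) and neutrophils (2112 CPM, 2073 to 2153), whose intervals overlapped. In CP+EVs it was highest in NK cells, at 1259 CPM. Atf3, a stress-induced repressor, ran from 55.0 CPM in CP+EVs NK cells, within reach of free RNA, to 1727 CPM in ductal cells.

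Egr1, Egr2, Egr3, Klf2, Klf4 and Klf6 encode zinc finger transcription factors. Egr1 was highest in ductal cells at 11999 CPM (11687 to 12318). Fibroblasts followed with 4321 CPM in CP and 8669.6 CPM in CP+EVs, and mesothelial cells with 3395 and 5603 CPM. In B cells Egr1 read 300.2 and 362 CPM, which was 13.2% and 10.2% of its library levels and within reach of free RNA in both. Egr2 and Egr3, regulators of antigen responses in lymphocytes, were highest in CP in neutrophils, at 322 and 469.8 CPM. Fibroblasts did not differ from neutrophils for Egr2 beyond counting error (312 to 329.6 against 307 to 338 CPM). In CP+EVs Egr3 was highest in macrophages or monocytes, at 161 CPM (147 to 176), followed by B cells at 114 CPM (105 to 124).

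Among the Krüppel-like members Klf2, a regulator of endothelial quiescence, was highest in CP+EVs in endothelial cells, 1237 CPM (1129.7 to 1352), whose interval overlapped that of mesothelial cells, 1074 CPM (1008 to 1143). Klf4 was highest in fibroblasts, at 2060.4 CPM in CP and 2132 CPM in CP+EVs, with 1086 and 666 CPM in macrophages or monocytes. In neutrophils, eosinophils, plasma cells, CP B cells and acinar barcodes Klf4 was within reach of free RNA. Klf6 was highest in CP in neutrophils (1789 CPM) and in CP+EVs in ductal cells (3814 CPM).

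The orphan nuclear receptors Nr4a1, Nr4a2 and Nr4a3, which act without a known ligand, held 0.344% of NK UMIs in CP and 0.359% in CP+EVs, 0.422% and 0.318% of fibroblast UMIs, and 0.0567% and 0.0458% of plasma cell UMIs. Nr4a2 was highest in NK cells in both libraries, with 1478 CPM (1307 to 1664) and 1191 CPM (1072 to 1319). Fibroblasts were next for Nr4a2 in CP at 1151 CPM but read 315 CPM in CP+EVs. Nr4a3 was highest in eosinophils in CP (1278 CPM) and in NK cells in CP+EVs (1246 CPM). Nr4a1, a marker of recent antigen receptor signalling, stood at 1958 and 2117 CPM in fibroblasts and at 1033 and 595 CPM in B cells. In ductal cells, which led 13 of the 22 immediate early genes in CP+EVs, Nr4a2 read 40.7 CPM and was within reach of free RNA.

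Dusp1, Zfp36, Btg2, Ier2, Ier3 and Ier5 are feedback regulators or genes named only for their early induction. Neutrophils led CP for Btg2, an antiproliferative factor, at 4179 CPM, for Dusp1 at 3251 CPM and for Ier3, a survival gene, at 828 CPM. Zfp36 was highest in CP in fibroblasts (2001 CPM, 1979 to 2023), whose interval overlapped that of neutrophils (1984 CPM, 1946 to 2023). Ier5 was highest in CP in eosinophils at 1146 CPM. Ier2 was low throughout, from 35.2 CPM in CP+EVs B cells to 302 CPM in ductal cells.

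**Figure D2:**
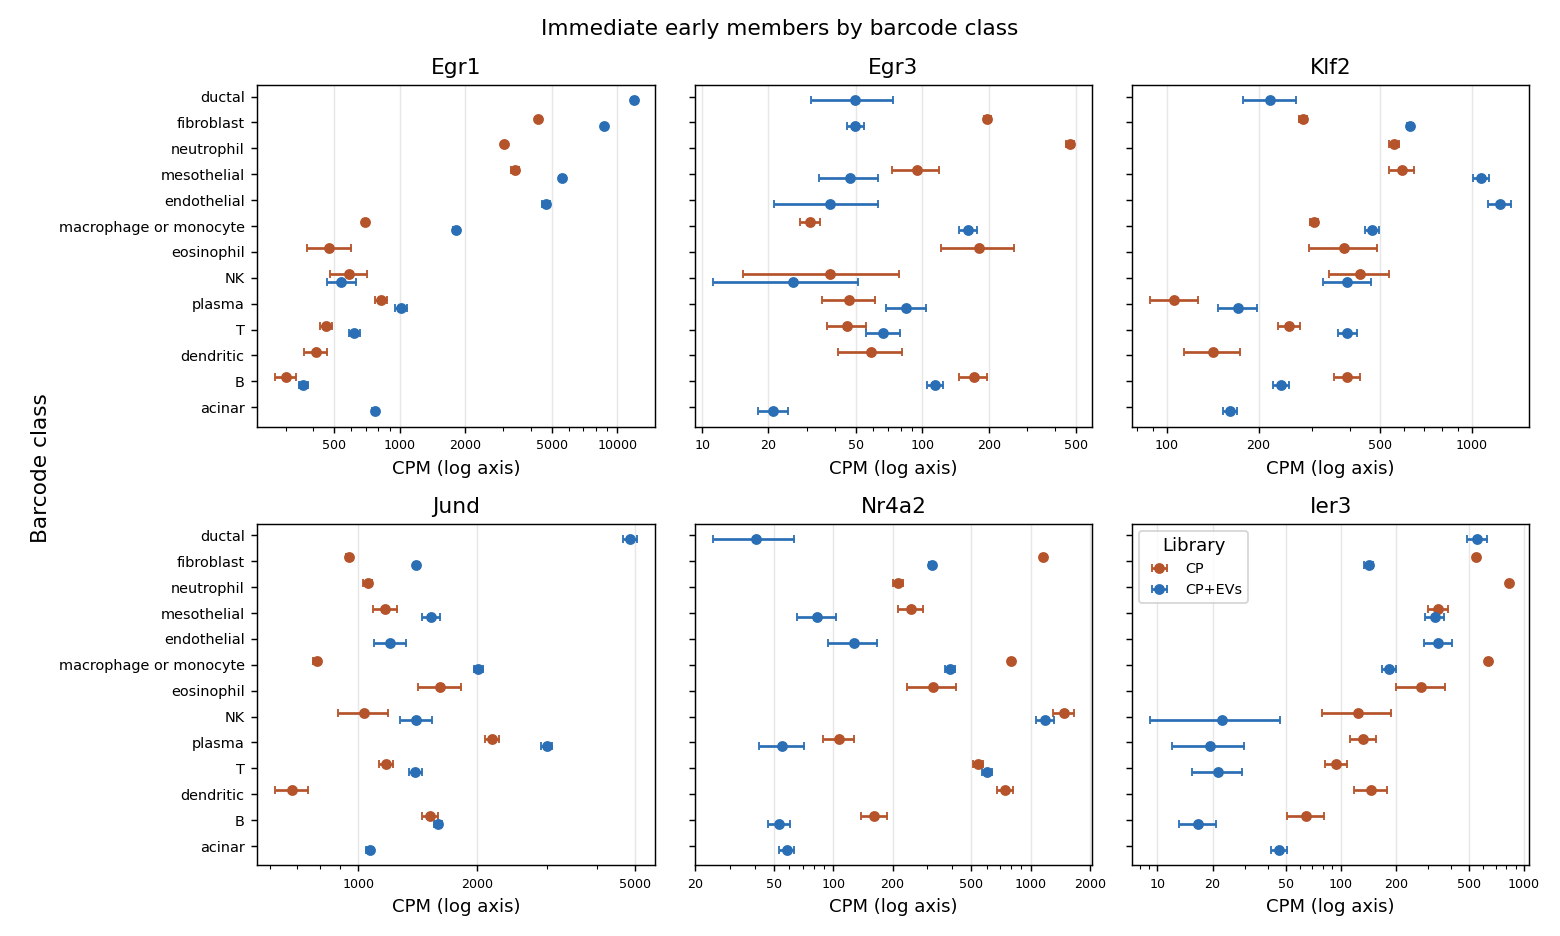
Level of 6 immediate early genes (horizontal axes, CPM of the class's UMIs, log scale) in each barcode class (vertical axis) in CP (brown) and CP+EVs (blue), with 95% Poisson intervals. Egr1, Klf2 and Jund lie to the right in CP+EVs in most classes seen in both libraries, Ier3 lies to the left in 6 of 7 by at least 1.5-fold, and Egr3 is higher in CP+EVs macrophages or monocytes and lower in CP+EVs fibroblasts.

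Among the heat shock genes, the inducible cytosolic Hsp70 genes Hspa1a and Hspa1b were highest in mesothelial cells in both libraries. In CP+EVs ductal cells were close behind, at 1443 CPM for Hspa1a and 2211 CPM for Hspa1b. Hspa1a stood in CP at 1022 CPM (949 to 1098) in mesothelial cells and at 166 CPM in macrophages or monocytes, 145 in fibroblasts, 79.2 in plasma cells, 44.7 in T cells and 29.7 in B cells. In CP+EVs it stood at 1528 CPM (1449 to 1610.1) in mesothelial cells, 712 in macrophages or monocytes, 416 in fibroblasts, 262 in plasma cells, 161 in T cells and 99.8 in B cells. In CP NK cells Hspa1a had 3 UMIs and was within reach of free RNA, against 29 UMIs in CP+EVs NK cells. The intervals of the libraries did not overlap in mesothelial, macrophage or monocyte, fibroblast, plasma, T, B or NK cells, and CP+EVs was higher in each.

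Hspa1b, which codes for nearly the same protein, read 1698 and 2384 CPM in mesothelial cells, 2211 CPM in ductal cells and 943 CPM in endothelial cells. Hspa1b read 160.1 and 809.8 CPM in macrophages or monocytes, and 272 and 689.6 CPM in fibroblasts. In neutrophils both genes were within reach of free RNA, at 33.1 and 58.3 CPM. Hspa1a (chromosome 17, 34969190 to 34972156) and Hspa1b (chromosome 17, 34956436 to 34959238) are neighbours on the minus strand of mm10. Over the longest reading frames of their GENCODE vM21 transcripts, 1926 and 1929 bases, the aligned sequences were 99.4% identical. The stretches after the reading frame, 810 and 643 bases, shared no run of 30 bases with each other. How reads of the shared part were assigned is not stated in the labels used here, so the split between the 2 genes is uncertain and their levels are best read together.

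Dnajb1, the J-domain partner of Hsp70, ran from 56.4 CPM in acinar barcodes, where acinar enzyme and Reg genes took 62.1% of UMIs, to 456 CPM in ductal cells. Hsph1, the nucleotide exchange factor of the Hsp110 family, was highest in T cells in both libraries, at 206 and 238 CPM. Its CP interval in T cells (188 to 227) overlapped that of mesothelial cells (152 to 215). Hspb1, the small heat shock protein that stabilises the cytoskeleton, was highest in mesothelial cells, with 1152 CPM in CP and 857 CPM in CP+EVs, followed in CP+EVs by endothelial cells at 459 CPM and in CP by fibroblasts at 186 CPM. In CP macrophages or monocytes, dendritic cells, B cells, T cells and neutrophils it lay at or below 26.7 CPM, within reach of free RNA in each.

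The abundant cytosolic chaperones Hspa8, Hsp90aa1, Hsp90ab1 and Dnaja1 gave most of the heat shock UMIs in every described class except CP+EVs mesothelial cells, where they took 0.535% of all UMIs out of 1.08%. Hsp90ab1, the constitutive Hsp90, ran from 456 CPM in neutrophils, within reach of free RNA, to 3365 CPM in ductal cells. Hspa8, the constitutive Hsp70, ran from 371 CPM in CP+EVs plasma cells to 1482 CPM in CP mesothelial cells. Hsp90aa1, the inducible Hsp90, was highest in ductal cells at 2271 CPM. Dnaja1 was highest in eosinophils at 1453 CPM (1272 to 1653), and was 563 CPM in ductal cells and 542 CPM in CP T cells.

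Hspd1 and Hspe1 encode the 2 parts of the mitochondrial chaperonin and lie head to head (chromosome 1, 55077835 to 55088243 and 55088132 to 55091307, mm10). They read 233 and 228 CPM in CP T cells, 299 and 234 CPM in CP+EVs B cells, and 44.6 and 28.1 CPM in neutrophils, where Hspe1 was within reach of free RNA. In CP+EVs endothelial cells they stood at 83.7 and 40.6 CPM. In CP+EVs both were highest in B cells.

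**Figure D3:**
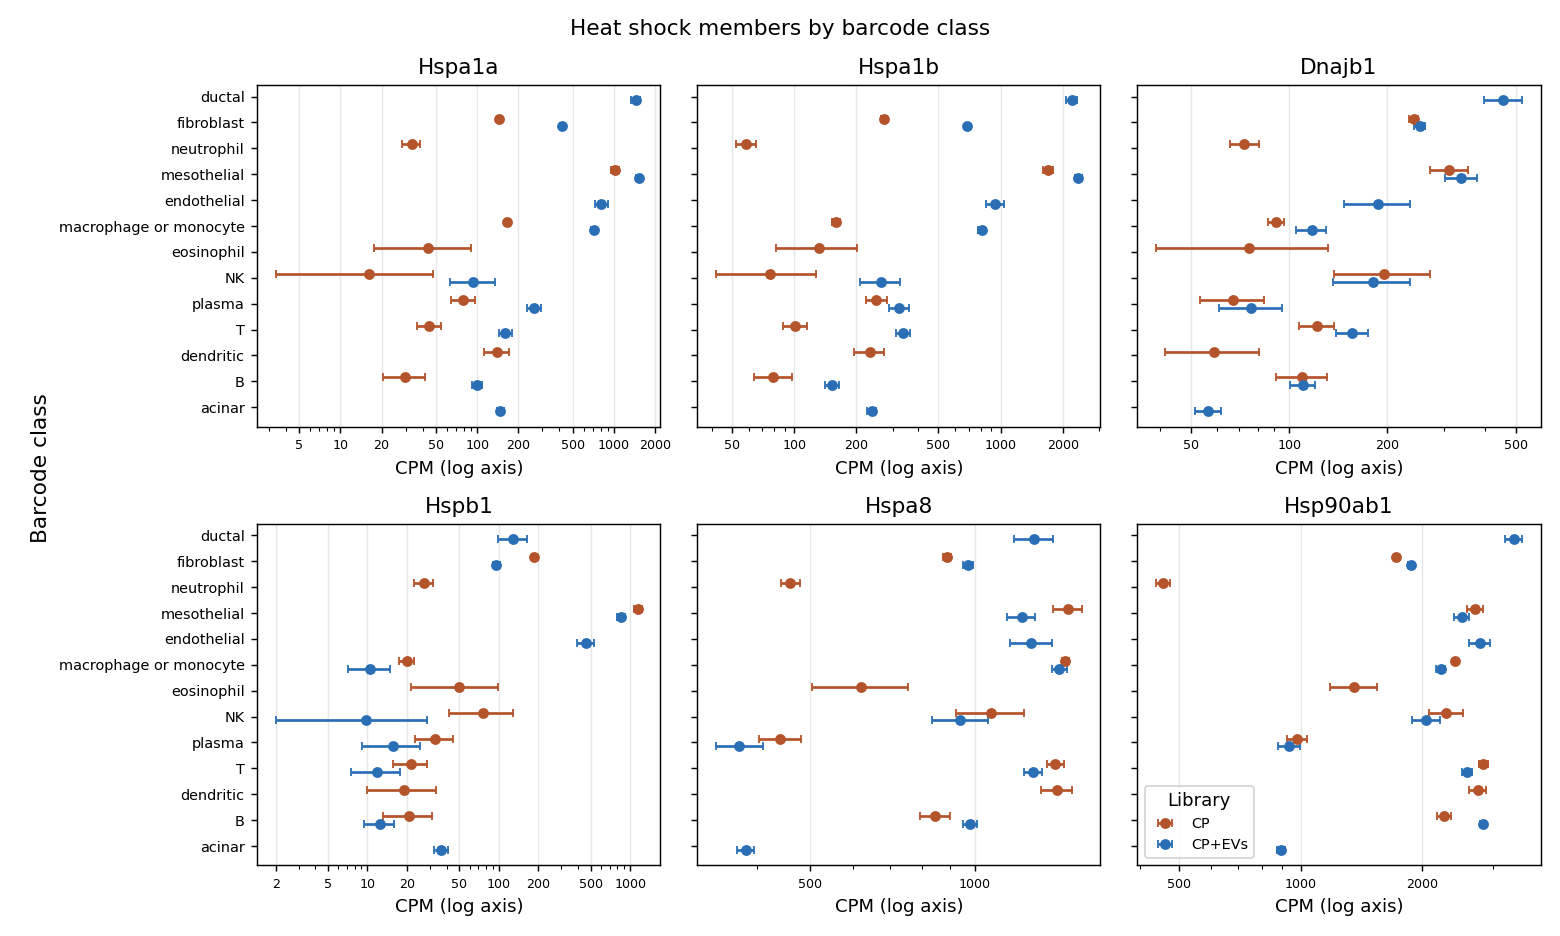
Level of 6 heat shock genes (horizontal axes, CPM of the class's UMIs, log scale) in each barcode class (vertical axis) in CP (brown) and CP+EVs (blue), with 95% Poisson intervals. Hspa1a and Hspa1b lie to the right in CP+EVs in all 7 classes seen in both libraries, Hspb1 lies to the left, and Dnajb1, Hspa8 and Hsp90ab1 lie within 1.5-fold in each of the 7.

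Single barcodes of a class differed widely. Each barcode was thinned to 1000 UMIs, leaving out shallower ones, so that depth does not set the count. The median neutrophil then held 34 immediate early UMIs, with the middle of the class between 25 and 43. The median fibroblast held 29 in CP (15 to 38) and 35 in CP+EVs (22 to 47), and ductal cells 46.5 (35.8 to 60.2). Fibroblasts ran from 3 UMIs at the 5th percentile of CP to 63 at the 95th of CP+EVs. The median macrophage or monocyte held 16 and 20, the median T cell 10 and 12, and the median B cell 10 and 8. The quartile ranges of the libraries overlapped in each of the 7 classes.

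Barcodes with 30 or more immediate early UMIs per 1000 made up 83.3% of ductal cells, 62.4% of neutrophils, and 48.1% and 62.4% of fibroblasts in CP and CP+EVs. They made up 4.96% and 17.3% of macrophages or monocytes, 0.973% and 4.56% of T cells and 0.764% of CP+EVs B cells. Such barcodes were thus the majority of ductal cells, neutrophils and CP+EVs fibroblasts and few among T and B cells.

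Heat shock UMIs were fewer, with class medians between 2 in neutrophils, plasma cells and acinar barcodes and 11 in ductal cells. These 3 low classes differed once acinar, Reg, mitochondrial, haemoglobin and immunoglobulin genes were set aside. Of the UMIs left, heat shock genes took 0.199% in neutrophils and 0.609% in acinar barcodes. In plasma cells they took 0.491% in CP and 0.578% in CP+EVs. No UMI of the 5 inducible genes was seen in 82.9% of neutrophils, 68.0% of CP and 43.8% of CP+EVs macrophages or monocytes, and 15.6% and 6.38% of mesothelial cells. Fibroblasts lay between, at 48.4% in CP and 39.3% in CP+EVs. A UMI of an inducible heat shock gene was seen in 58.1% of CP fibroblasts with many immediate early UMIs and in 47.1% of those with few, split at the class median. In CP macrophages or monocytes the same shares were 38.2% and 28.4%, and in acinar barcodes 47.0% and 34.4%. Of 20 classes by library, 13 had the higher share among barcodes with many immediate early UMIs and 7 the lower. Among the 7 were CP dendritic cells (23.3% against 38.7%), CP plasma cells (13.2% against 26.7%) and CP+EVs NK cells (39.5% against 54.3%). The intervals of the shares lay apart in 3 of the 20, CP fibroblasts, CP macrophages or monocytes and acinar barcodes. In acinar barcodes acinar enzyme and Reg genes took 62.1% of UMIs, all counted in the thinning. What part their share has in the acinar difference was not tested.

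**Figure D4:**
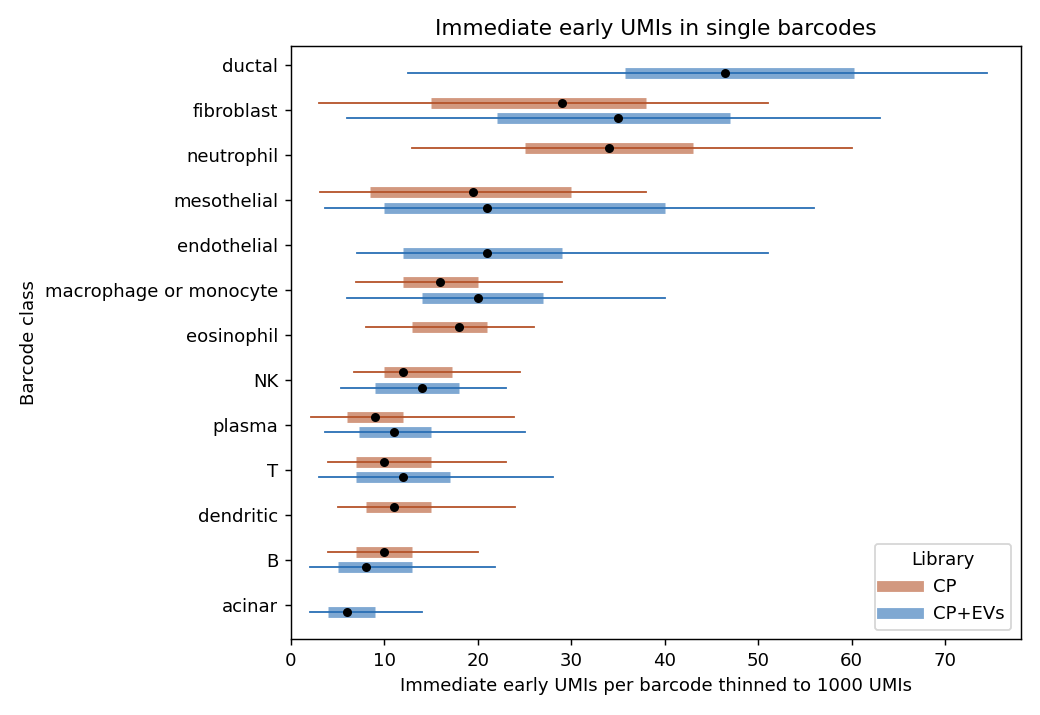
Immediate early UMIs in single barcodes thinned to 1000 UMIs (horizontal axis) by barcode class (vertical axis) in CP (brown) and CP+EVs (blue). Points are medians, thick bars run from the first to the last quartile and thin lines from the 5th to the 95th percentile of barcodes, and the medians of the libraries lie within or at the end of each other's thick bars in all 7 classes seen in both.

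The shares of barcodes with a UMI gave the same picture for the Hsp70 genes at equal depth. After thinning, an Hspa1a UMI was seen in 11.4% of CP (9.80 to 13.2) and 31.2% of CP+EVs macrophages or monocytes (26.3 to 36.5), against 33.3% and 67.4% before thinning. In fibroblasts the thinned shares were 11.5% (9.85 to 13.3) and 24.1% (21.8 to 26.4), and in T cells 4.47% (2.86 to 6.64) and 9.54% (7.02 to 12.6). In CP neutrophils, where Hspa1a was within reach of free RNA, the thinned share was 2.61% (1.96 to 3.41) and is read as background, at a median depth of 1787 UMIs against 7236 in CP macrophages or monocytes. The shares of CP B cells (2.39%) and CP NK cells (1.79%) lay below it, and that of CP T cells had an overlapping interval. No class of CP+EVs had Hspa1a within reach of free RNA. Egr1 was seen in 37.2% of CP and 67.3% of CP+EVs macrophages or monocytes after thinning, and in 83.4% and 93.7% of fibroblasts.

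CP+EVs macrophages or monocytes held more immediate early and more inducible heat shock RNA than those of CP. Of 22 immediate early members 9 were at least 1.5-fold higher in CP+EVs, and 3 were lower by that fold, where 11.0% and 22.3% of all measured genes were. The list's summed share had a log2 ratio of 0.38 (0.37 to 0.39), and the median over members was 0.42, beside -0.23 over all genes measured in the class. The 3 Egr genes led, as Egr3 at 30.8 CPM in CP and 161 in CP+EVs (log2 ratio 2.39, 2.19 to 2.59), Egr2 at 99.3 CPM in CP and 361 in CP+EVs (1.86) and Egr1 at 692 CPM in CP and 1807 in CP+EVs (1.38). The CP value of Egr3 was within reach of free RNA. Lowest were Ier3 at 635 CPM in CP and 184 in CP+EVs (-1.79), Nr4a2 at 796 CPM in CP and 391 in CP+EVs (-1.03) and Klf4 at 1086 CPM in CP and 666 in CP+EVs (-0.71).

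Of 10 measured heat shock members in this class 2 were at least 1.5-fold higher and 0 lower, beside 11.0% and 22.3% of all measured genes. These were Hspa1b at 5.06-fold (4.76 to 5.38) and Hspa1a at 4.28-fold (4.02 to 4.55). Dnajb1 came next with a log2 ratio of 0.37, and Hspe1, Hspd1 and Hsp90ab1 were lowest at -0.36, -0.22 and -0.11. As a group the inducible genes had a log2 ratio of 1.70 and the abundant cytosolic genes -0.06. C1qc and Ms4a7 were among the 10 leading genes of the class in both libraries, Ccl12 and Fcna in CP alone, and Lyve1, Siglec1 and Pf4 in CP+EVs alone. What part the makeup of the class has in these differences was not tested. Among barcodes with C1qb above the library level, chosen after seeing the data, the log2 ratio was 0.41 for the immediate early list and 0.15 for the heat shock list.

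Fibroblasts of CP+EVs held more Egr1, Klf2, Jun and Hsp70 RNA and less Egr3, Ier3 and Nr4a2. Of 22 immediate early members 6 were at least 1.5-fold higher and 3 lower, beside 13.3% and 13.8% of all measured genes. The count lower was near the share over all genes. Klf2 stood at 279.6 CPM in CP and 628 in CP+EVs (2.25-fold, 2.16 to 2.34), Egr1 at 4321 CPM in CP and 8669.6 in CP+EVs (2.01-fold, 1.99 to 2.03) and Jun at 879 CPM in CP and 1629.7 in CP+EVs (1.85-fold). Egr3 stood at 197 CPM in CP and 49.7 in CP+EVs (3.96-fold lower, 3.61 to 4.36), Ier3 at 549.7 CPM in CP and 142 in CP+EVs (3.87-fold lower) and Nr4a2 at 1151 CPM in CP and 315 in CP+EVs (3.66-fold lower). The summed log2 ratio was 0.33 for the immediate early list, while the medians over members and over all genes were 0.13 and 0.04. Egr1 alone gave 15.2% of the list's UMIs in CP and 24.3% in CP+EVs.

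In the same fibroblasts 4 of 11 heat shock members were at least 1.5-fold higher and 2 lower, beside 13.3% and 13.8% of all measured genes. The count lower was near that share. Hspa1a had a log2 ratio of 1.52, Hspa1b 1.34, Hsph1 0.74 and Hsp90aa1 0.64. Lower were Hspb1 at 186 CPM in CP and 96.0 in CP+EVs (-0.95) and Hspe1 (-0.73), and Hspd1 stood at -0.30. Of the inducible group, Hspb1 was thus on the other side from Hspa1a, Hspa1b and Hsph1.

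Mesothelial cells, highest for Hsp70 in both libraries though close to ductal cells in CP+EVs, differed less. The heat shock share had a log2 ratio of 0.02 (-0.03 to 0.06), with 0 of 11 members at least 1.5-fold higher and 2 lower, beside 14.7% and 17.4% of all measured genes. Those 2 were Hspe1 (-0.89) and Hspd1 (-0.81), and Hspa1a and Hspa1b stood at 0.58 and 0.49, Dnajb1 at 0.12 and Hsph1 at -0.47. Among immediate early genes 4 of 22 were at least 1.5-fold higher, Klf2 (0.86), Egr1 (0.72), Ier2 (0.68) and Jun (0.59). The 4 lower ones were Nr4a2 (-1.57), Egr3 (94.3 CPM in CP and 46.8 in CP+EVs), Nr4a3 (-0.90) and Egr2 (-0.70). Both immediate early counts, and the count of 2 lower heat shock members, were near the shares over all measured genes.

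Most members stood within 1.5-fold in T cells, as did most of all measured genes. Of 22 immediate early members 2 were at least 1.5-fold higher and 1 lower, beside 4.73% and 7.04% of all measured genes. Both immediate early counts were near these shares. Klf2, which holds T cells in a quiescent state, stood at 252 CPM in CP and 391 in CP+EVs (log2 ratio 0.64), and Ier2 at 0.61 and Egr3 at 0.54 followed. Ier3 was lower, at 94.6 CPM in CP and 21.5 in CP+EVs (-2.12), and next lowest were Fosl2 (-0.30) and Klf4 (-0.23). Of 11 heat shock members the 2 higher ones were Hspa1a at 44.7 CPM in CP and 161 in CP+EVs (1.84) and Hspa1b at 101 CPM in CP and 337 in CP+EVs (1.73), and the lower one was Hspb1 (-0.85), within reach of free RNA in CP. Dnajb1 stood at 0.36, Hspe1 at -0.28 and Hsp90aa1 at -0.20. The summed heat shock share had a log2 ratio of -0.04, with the abundant cytosolic group at -0.15 and the inducible group at 0.87.

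NK values rested on few barcodes, 63 in CP and 92 in CP+EVs. Of 20 measured immediate early members 2 were at least 1.5-fold higher and 2 lower, beside 13.6% and 15.4% of all measured genes. Neither count exceeded the share over all genes. Klf6 (0.63, 0.29 to 0.98) and Ier2 (0.61) were the higher ones, though the interval of Ier2 spans 0, from -0.39 upward, on 11 and 29 UMIs, and Ier3 (-2.40, -3.93 to -1.20) and Klf4 (-1.14) the lower ones, with Nr4a1 at 0.47 and Btg2 at -0.50. The log2 ratio of the list was 0.05, with an interval that spans 0 (-0.02 to 0.13). Of 10 measured heat shock members Hspa1a (2.33, 0.84 to 4.88) and Hspa1b (1.74, 0.96 to 2.72) were higher and Hspd1 (-0.92) lower. Hsph1 stood at 0.08, Hsp90aa1 at -0.42 and Hspe1 at -0.31.

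Plasma cells had 4 immediate early members at least 1.5-fold higher and 4 lower of 22, beside 6.86% and 28.2% of all measured genes. Egr2 (1.18), Egr3 (0.86), Klf6 (0.80) and Klf2 (0.69) were the higher ones, all of the zinc finger group. Ier3 stood lowest at 133 CPM in CP and 19.3 in CP+EVs (-2.75), with its CP+EVs value within reach of free RNA, before Fosl2 (-1.05) and Nr4a2 (-0.94), which were within reach of free RNA in both libraries. Of 11 heat shock members only Hspa1a was at least 1.5-fold higher, at 79.2 CPM in CP and 262 in CP+EVs (1.72), while Hspb1 (-1.04), Hspd1 (-0.93) and Hspe1 (-0.83) were lower. Hspa1b stood at 0.37 and Dnajb1 at 0.19. Both heat shock counts were near the shares over all measured genes. The count of lower immediate early members did not exceed its share. Over every gene measured in plasma cells the median log2 ratio was -0.29. Acinar, Reg, mitochondrial, haemoglobin and immunoglobulin genes took 47.2% of the total in CP and 56.3% in CP+EVs, and median-of-ratios scaling moved the list's log2 ratio from 0.19 to 0.48.

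B cells were the class in which the immediate early list was lower in CP+EVs. Of 22 members 0 were at least 1.5-fold higher and 8 lower, beside 14.3% and 14.9% of all measured genes, and the log2 ratio of the list was -0.43 (-0.46 to -0.39). Ier3 (64.7 CPM in CP and 16.6 in CP+EVs, log2 ratio -1.96), Fosl2 (352 CPM in CP and 103 in CP+EVs, -1.77) and Nr4a2 (162 CPM in CP and 53.1 in CP+EVs, -1.61) were lowest, of which Ier3 was within reach of free RNA in CP. All 3 Nr4a genes were at least 1.5-fold lower, with Nr4a1 at -0.80 and Nr4a3 at -0.91. Egr1 (0.27), Klf6 (0.12) and Egr2 (0.12) were the highest. Heat shock genes went the other way, with 4 of 11 at least 1.5-fold higher: Hspa1a (29.7 CPM in CP and 99.8 in CP+EVs, 1.73), Hspa1b (0.94), Hsph1 (0.86) and Hspd1 (0.72). After thinning, the share of CP B cells with an Hspa1a UMI lay below the neutrophil share read as background. The 1 lower one was Hspb1 (-0.76, -1.46 to 0.02, an interval that spans 0), within reach of free RNA in CP, and Dnajb1 and Dnaja1 were level (0.0011 and 0.01).

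The immediate early share of CP+EVs B cells differed between shallow and deep barcodes. In barcodes up to the median depth it was 1.15% and in deeper ones 0.601%, against 1.11% and 0.912% in CP. The heat shock share had the other order, at 0.452% in the shallower and 0.665% in the deeper barcodes of CP+EVs. Among B cells with an Ighd UMI, chosen after seeing the data, the log2 ratio was -0.28 for the immediate early list and 0.42 for the heat shock list. With every barcode weighted equally the immediate early value was -0.14.

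**Figure D5:**
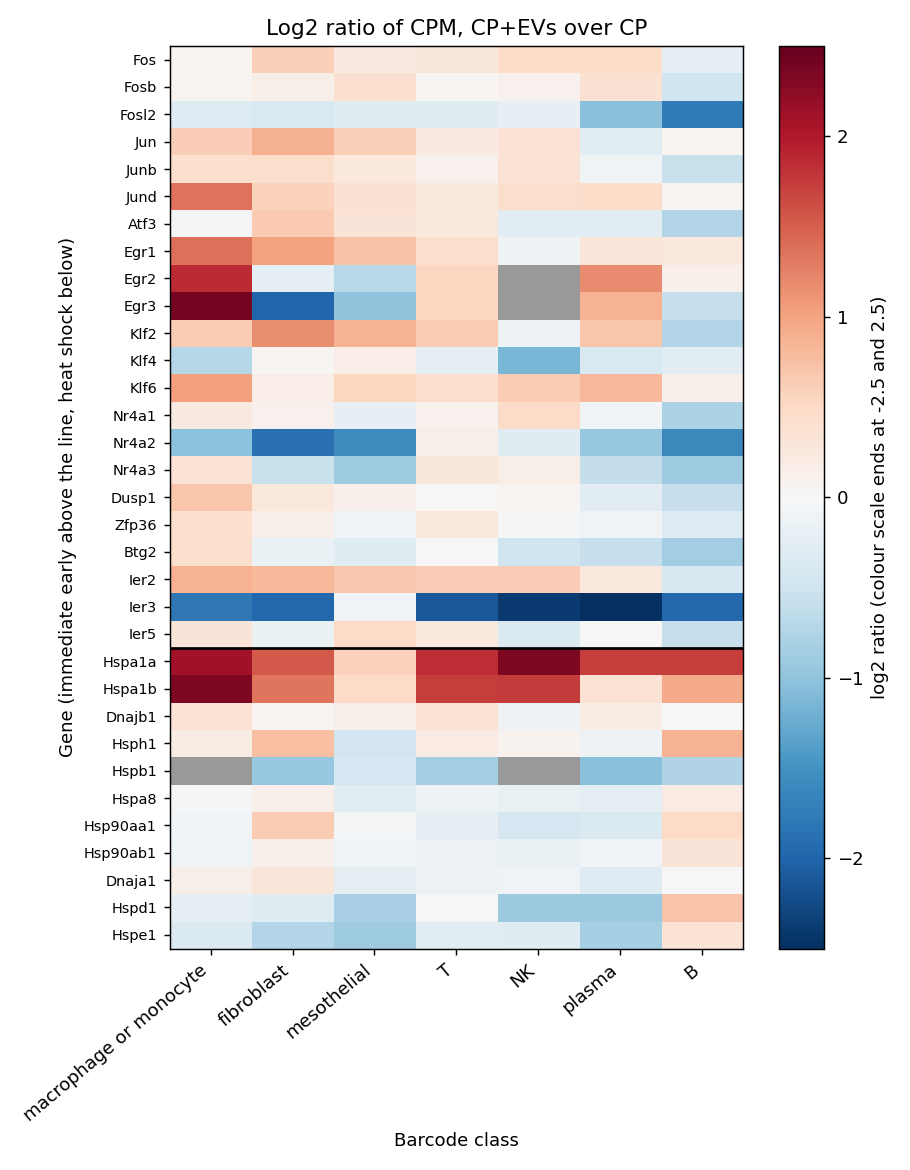
Log2 ratio of CPM, CP+EVs over CP (colour), for each of the 33 genes (vertical axis, immediate early genes above the line and heat shock genes below) in the 7 classes seen in both libraries (horizontal axis), with genes under the minimum in grey. The rows of Hspa1a and Hspa1b are red in every class and the rows of Ier3 and Fosl2 blue in every class, while the Egr3 row changes colour between macrophages or monocytes (2.39) and fibroblasts (-1.99).

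Read by gene over the 7 classes, a few members had the same sign throughout. Hspa1a was above level in 7 of 7 classes, at least 1.5-fold in 6, with log2 ratios from 0.58 in mesothelial cells to 2.33 in NK cells. Hspa1b was above level in 7 of 7 and at least 1.5-fold in 5, from 0.37 in plasma cells to 2.34 in macrophages or monocytes. Over all kept barcodes Hspa1a read 149 CPM in CP and 376 in CP+EVs (1.33), and Hspa1b 236 and 559 CPM (1.24). Their levels in the libraries as a whole thus differed too, and the classes of a library share its free RNA. The Hspa1a value of CP NK cells was within reach of free RNA, and that of CP B cells lay only a little above this reach. Jund (0.07 to 1.36) and Klf6 (0.12 to 1.02) were also above level in 7 of 7. Both were lowest in B cells, where the interval of each spans 0. Ier2 was at least 1.5-fold higher in 5 classes, of which NK cells had an interval that spans 0, with -0.39 in B cells. Klf2 was at least 1.5-fold higher in 5 classes and lower in B cells, at 391 CPM in CP and 237 in CP+EVs (-0.72), and stood at -0.14 in NK cells. Hspa1a, Hspa1b, Jund and Klf6 stayed above level, in every class that could be read, under each of the 7 alternatives for the total, the gate, the barcode filter and the weight of barcodes.

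Ier3 was below level in 7 of 7 and at least 1.5-fold lower in 6, from -2.75 in plasma cells to -0.07 in mesothelial cells. The mesothelial value of Ier3 did not differ from level beyond counting error. Over all kept barcodes Ier3 read 516 CPM in CP and 104 in CP+EVs, so its level in the libraries as a whole differed too. The CP value of B cells (12.5% of the library level) and the CP+EVs value of plasma cells (18.6%) were within reach of free RNA, so 2 of the 6 lower calls rest on such a value. In T cells Ier3 stood at 18.3% and 20.7% of these library levels, where the highest free RNA reading was 17.5% and 15.2%. Fosl2 was below level in 7 of 7, from -1.77 in B cells to -0.21 in NK cells, and at least 1.5-fold lower in B and plasma cells. Its NK value did not differ from level beyond counting error. Nr4a2 was at least 1.5-fold lower in 5 classes and 0.14 in T cells. Hspb1 was measured in 5 classes and below level in each, at least 1.5-fold in 4, of which only fibroblasts were clear of free RNA in both libraries.

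Dnajb1, Hspa8, Hsp90ab1 and Dnaja1 stayed within 1.5-fold in all 7 classes, as did Fosb, Junb, Zfp36 and Ier5. Dnajb1, like Hspa1a and Hspa1b a target of Hsf1, ranged from -0.12 to 0.37. Hsph1 was at least 1.5-fold higher in B cells and fibroblasts. Hspd1 and Hspe1 were each at least 1.5-fold lower in 3 classes. Hspd1 was at least 1.5-fold higher in B cells (0.72), where Hspe1 stood at 0.34.

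Other immediate early and stress genes, 34 found of a list of 36, were read in the same classes. In macrophages or monocytes 9 of 29 measured were at least 1.5-fold higher and 6 lower (over all measured genes 11.0% and 22.3%), with Nfkbiz, an atypical I-kappa-B protein, at 270.0 CPM in CP and 1040.2 in CP+EVs (log2 ratio 1.95), Klf9 at 1.53, Sik1 at -1.01 and Dusp5 at -0.96. In fibroblasts 8 of 31 were higher and 7 lower (over all 13.3% and 13.8%), with Ccn2, a matrix growth factor, at 82.0 CPM in CP and 251 in CP+EVs (1.61), Irf1 at 97.7 CPM in CP and 277 in CP+EVs, Tnfaip3 at -0.95 and Srf at -0.89. Ccn2 also led mesothelial cells at 1.48, where 7 of 29 were higher and 6 lower (over all 14.7% and 17.4%). B cells had 0 higher and 10 lower of 27 (over all 14.3% and 14.9%), with Cebpb lowest at 172 CPM in CP and 51.2 in CP+EVs (-1.75) and Tiparp at -1.31. Of the remaining classes, T cells had 2 higher and 1 lower of 29 (over all 4.73% and 7.04%), NK cells 0 and 5 of 24 (over all 13.6% and 15.4%), and plasma cells 1 and 6 of 25 (over all 6.86% and 28.2%). The share lower in macrophages or monocytes and plasma cells was near that over all genes. In T cells the highest were Gadd45b (0.71) and Per1 (0.65) and the lowest Arc (-0.75) and Nfkbia (-0.57). NK cells had Irf1 (0.53) and Gadd45a (0.52) highest and Klf10 (-1.14) and Tiparp (-0.82) lowest. Plasma cells had Per1 (0.61) and Sik1 (0.37) highest and Gadd45a (-1.70) and Myc (-1.61) lowest. In mesothelial cells Ccn2 (1.48) and Ppp1r15a (0.81) were highest and Arc (-1.18) and Dusp5 (-1.05) lowest. The B cell extremes were Cebpd (0.31) and Per1 (0.06) at the upper end and Cebpb (-1.75) and Tiparp (-1.31) at the lower.

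The list of 30 other heat shock and chaperone genes, which holds the Cct subunits of the cytosolic chaperonin, Hsp40 genes, cochaperones and Hsf1 itself, had 0 genes at least 1.5-fold higher and 1 lower of 22 in macrophages or monocytes, 0 and 0 of 25 in fibroblasts, 1 and 0 of 24 in T cells, and 0 and 3 of 24 in mesothelial cells. NK cells had 0 and 1 of 18 and plasma cells 1 and 4 of 22. In B cells 6 of 24 were higher and 2 lower, with a median log2 ratio of 0.40. Over all measured genes the shares higher and lower are those just given for each class, among them 14.3% and 14.9% in B cells and 6.86% and 28.2% in plasma cells. In B cells Cct6a stood at 210.3 CPM in CP and 346 in CP+EVs (0.72) and Hsf1 at 36.0 CPM in CP and 19.0 in CP+EVs (-0.93). The oxidative stress gene Hmox1 stood in mesothelial cells at 119 CPM in CP and 45.7 in CP+EVs (-1.37). By log2 ratio, the highest of the list in macrophages or monocytes were Hmox1 (0.30) and Hspa4l (0.25), and the lowest Ahsa1 (-1.01) and Cct8 (-0.50). B cells ranged from Hsf1 (-0.93) and Bag3 (-0.68) to Hsf2 (0.76) and Cct6a (0.72). Plasma cells ranged from Hspb8 (-1.23) and Hmox1 (-1.08) to Hspa4l (1.07) and Hspa9 (0.53). T cells ranged from Hsf2 (-0.50) and Hspa9 (-0.43) to Cct7 (0.59) and Hspb8 (0.28). NK cells ranged from Cct6a (-0.94) and Chordc1 (-0.46) to Fkbp4 (0.43) and Cct2 (0.36). Fibroblasts ranged from Cct8 (-0.43) and Cct3 (-0.41) to Hspb8 (0.49) and Sqstm1 (0.42). Mesothelial cells ranged from Hmox1 (-1.37) and Stip1 (-0.76) to Cct7 (0.53) and Tcp1 (0.48).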

How the data were processed

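Single-cell RNA of mouse pancreas was measured in 2 libraries, CP and CP+EVs, 1 per group. The deposited matrices hold UMI counts per gene and barcode, which are whole numbers in the files. The submitters' processing notes name CASAVA 1.8, UMI-tools, Seurat and mm10, and neither aligner nor gene annotation is stated there. Barcodes under 200 genes or above 25% mitochondrial UMIs were removed, and no doublet caller was run. A marker counted as present where its UMIs exceeded the library's rate at that depth (Poisson tail under 0.05), and acinar barcodes also needed at least 40% of UMIs from acinar enzyme and Reg genes. Marker genes were listed ahead of the gate's thresholds, which were chosen with the data in view. Barcodes with markers of more than 1 class mostly stay without a class.

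For each library and class, UMIs were added up and scaled to the class total (CPM), with exact 95% Poisson intervals. Ratios are log2 of CP+EVs over CP with a prior count of 0.5. A gene counted as measured with at least 20 CPM in 1 library and at least 20 UMIs. Shares of barcodes were taken after thinning to 1000 UMIs, with exact Clopper-Pearson intervals. Depth ranged from class medians of 1450 to 14413.5 UMIs per barcode, and intervals cover counting error only. All members are described, and per class the 3 highest and 3 lowest members of each list and the 2 highest and 2 lowest genes of each list of other genes are named. The members and lists were chosen with earlier results of these data known. The ratio script was tested on simulated data. Python 3.11.15, numpy 2.4.6, scipy 1.17.1, pandas 2.3.3, matplotlib 3.10.9 and Biopython 1.88 were used. Alternatives were tried for the gate, the filters, the total, the weight of barcodes, the fold, the minimum level and the thinning.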

Additional observations from a re-analysis of the deposited data

Results flagged for a closer look

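The immediate early list lay on opposite sides of level in 2 classes. Its log2 ratio, CP+EVs over CP, was -0.43 in B cells and 0.38 in macrophages or monocytes. Egr3, a zinc finger factor, likewise had a log2 ratio of -1.99 in fibroblasts and 2.39 in macrophages or monocytes, where its CP level was within reach of free RNA. These differences between classes were not tested, since each group holds 1 library.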

How the results depend on the processing

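All values here are log2 ratios, CP+EVs over CP, unless called counts, and the cause of a shift was not tested. With at least 2 markers per barcode the immediate early list read 0.41 in macrophages or monocytes, and the heat shock list turned to 0.0762 in NK cells. With at least 4 markers the immediate early list read 0.22 in plasma cells, 0.32 in fibroblasts and 0.35 in mesothelial cells, the heat shock list turned to 0.0815 in plasma cells, and NK cells gave no value. Median-of-ratios scaling gave 0.60 in macrophages or monocytes, 0.48 in plasma cells, 0.29 in fibroblasts and 0.34 in mesothelial cells for immediate early genes, and 0.45, 0.26 and 0.28 in the first 3 of these for heat shock genes. A total without acinar, Reg, mitochondrial, haemoglobin and immunoglobulin genes gave immediate early values of 0.42 in macrophages or monocytes, -0.39 in B, 0.46 in plasma, 0.21 in T, 0.36 in fibroblast and 0.34 in mesothelial cells. Heat shock values were then 0.26 in macrophages or monocytes, 0.23 in plasma cells and 0.35 in fibroblasts, and turned to 0.0039 in T cells. Weighting barcodes equally gave immediate early values of 0.36 in macrophages or monocytes, -0.14 in B, 0.25 in plasma, -0.0796 in NK, 0.39 in fibroblast and 0.19 in mesothelial cells, and heat shock values of 0.25 in macrophages or monocytes, 0.23 in B, -0.12 in plasma, 0.35 in fibroblast and 0.19 in mesothelial cells. Of the alternatives chosen after seeing the data, C1qb macrophages or monocytes gave 0.41 and 0.15, Ighd B cells -0.28 and 0.42, and leaving out shared barcodes 0.36 for immediate early genes in mesothelial cells. Limits of 500 genes or 10% mitochondrial UMIs moved no list beyond its interval.

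With a fold of 2, over all measured genes between 1.63% and 6.36% were higher and between 2.68% and 11.4% lower in the 7 classes. The counts of immediate early members higher in CP+EVs were then 5 in macrophages or monocytes, 1 in plasma cells, 2 in fibroblasts and 0 in T, NK and mesothelial cells, and the counts lower were 3 in B and 2 in plasma and mesothelial cells. Heat shock counts were 1 higher in B cells and 2 higher in fibroblasts, with 1 lower in plasma cells and 0 lower in B, T, NK, fibroblast and mesothelial cells. With at least 100 CPM in 1 library (over all genes 3.35% to 16.3% higher and 3.26% to 24.3% lower), the immediate early counts were 1 higher in T and NK cells and 0 lower in T cells, and the heat shock counts 1 higher in NK cells and 0 lower in B and T cells. With no minimum beyond 1 UMI (over all genes 18.0% to 25.5% higher and 21.0% to 36.7% lower), 1 heat shock member was lower in macrophages or monocytes and 2 in NK cells. No paired analysis was possible because each group holds 1 library. For the same reason no replicate could be left out.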
